A study of Mus musculus with 12 samples.

Results

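The comparison described here set RNA of the astrocyte fraction from Sema4B-/- mice (knockout) against that from Sema4B+/- mice (heterozygote) 12 h after a cortical injury. It used 6 of the 12 libraries of the series, 3 per genotype, chosen by their labelled fraction and genotype, and all genes of the deposited table. Mice of both genotypes were injured, and all 6 libraries came from cells of a 3 mm square of cortex around the wound that bound to a plate coated against the astrocyte surface antigen ACSA-2. The heterozygotes, which serve as the controls, carry 1 altered copy of the gene themselves, and no uninjured or wild-type cortex is part of the comparison. The labels do not give the altered part of the gene, the cells in which it is altered, or the age or sex of the mice. They also do not say whether animals were pooled or separate, so p-values measure the spread between libraries, which need not be that between animals.

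Sema4b encodes a transmembrane semaphorin of class 4. Semaphorins are cell surface or secreted proteins first known as axon guidance cues. They act through plexin receptors, and class 4 members signal mainly through B-type plexins. Astrocytes respond to cortical injury within hours by switching on cytokine-driven transcription, through STAT3 and NF-kappaB, and over days by enlarging, dividing near the wound and laying down a scar border together with vessel-associated cells.

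Libraries carry the numbers of their columns in the deposited table, heterozygous 2, 4 and 6 and knockout 8, 10 and 12. Totals were 13530229 to 14768224 reads in heterozygous and 15426713 to 15993564 in knockout libraries, so 3 reads corresponded to 0.188 to 0.222 CPM (counts scaled to the library total, a floor that covers counting error only). Levels below are CPM on library totals scaled by TMM, a factor that centres the bulk of genes between libraries. All 18 astrocyte markers were detected, with sums of 54259 to 74397 CPM over the 6 libraries. Other cells were present in each library, with sums of 2611 to 4872 CPM over 16 neuron markers, 1345 to 2119 over 15 microglia markers and 232 to 849 over 18 endothelial markers. Heterozygous library 2 had 514 CPM of the X-inactivation transcript Xist and 0 of Y-linked transcripts. Heterozygous library 4 had 0.624 and 199, and the other 4 libraries held both. Heterozygous libraries 2 and 4 thus held RNA of different animals, and the sex signal differed within the heterozygous group. Levels from bulk RNA cannot tell fewer cells of a type from less RNA per cell.

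The targeted gene had reads in every library. Sema4b (ENSMUSG00000030539, GRCm38 chromosome 7, 80186841 to 80226527, plus strand) stood at 64.3, 103 and 57.3 CPM in heterozygous libraries 2, 4 and 6 and at 41.9, 26.7 and 53.7 CPM in knockout libraries 8, 10 and 12. The groups did not overlap, but heterozygous library 6 and knockout library 12 were close to each other. The log2 fold change of knockout over heterozygote was -0.88 ± 0.29 (standard error), with an unadjusted p of 0.0144 and an adjusted p of 0.930 by the edgeR quasi-likelihood test. Without heterozygous library 4 it was -0.58, and without knockout library 12 it was -1.17. RefSeq lists more than 1 start for the gene, and the deposited counts cover the whole gene, so they do not separate transcripts by start. The windows around 2 of these starts (GRCm38.p6, plus strand, chr7:80186620-80186919 and chr7:80198338-80198637) are shown 5′ to 3′ to place the gene whose reads persist, with the 50 bases from the start on in capitals.
Sema4b, upstream start: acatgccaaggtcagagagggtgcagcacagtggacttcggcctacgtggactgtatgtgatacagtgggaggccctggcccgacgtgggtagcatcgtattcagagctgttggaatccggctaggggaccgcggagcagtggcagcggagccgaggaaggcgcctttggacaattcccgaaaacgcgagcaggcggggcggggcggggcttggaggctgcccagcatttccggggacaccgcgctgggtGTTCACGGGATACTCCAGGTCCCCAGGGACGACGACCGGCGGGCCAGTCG
Sema4b, downstream start: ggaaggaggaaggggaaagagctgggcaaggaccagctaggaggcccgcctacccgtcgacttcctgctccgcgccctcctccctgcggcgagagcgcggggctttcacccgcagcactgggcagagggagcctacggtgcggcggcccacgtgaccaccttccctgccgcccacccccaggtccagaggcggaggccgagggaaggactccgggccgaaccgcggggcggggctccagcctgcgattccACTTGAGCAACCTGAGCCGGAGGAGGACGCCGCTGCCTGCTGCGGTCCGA

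Genes beside Sema4b were examined because a region around an altered gene can carry other differences between mouse lines. Of 18 genes with starts within 500000 bases and a mean of at least 5 CPM, 7 had positive and 11 negative fold changes, with a median of -0.017. Among these 18, only Hddc3, a nucleotide hydrolase gene, had an unadjusted p under 0.05 by edgeR. It stood at 17.4, 11.8 and 15.9 CPM in heterozygous and 21.9, 24.3 and 25.2 CPM in knockout libraries. The groups were apart, with a log2 fold change of 0.67 ± 0.16. Its annotated span, whose start lies 156263 bases from that of Sema4b, overlaps that of Man2a2 on the other strand, and the sources used here do not say whether counting used strand. Cib1, the gene directly downstream of Sema4b, had overlapping groups and a log2 fold change of -0.18 ± 0.15. Prc1, within the same distance but below 5 CPM, had 24, 24 and 24 reads in heterozygous and 14, 14 and 12 in knockout libraries. Its groups were apart, with a log2 fold change of -0.92 ± 0.27 and an unadjusted p of 0.0078 by edgeR. The annotated span of Prc1 overlaps that of Rccd1 on the other strand.

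No gene passed the adjusted threshold. Of 15468 genes tested by edgeR, 0 were higher and 0 lower in knockouts at an adjusted p of 0.05, and the lowest adjusted p was 0.930. At an unadjusted p under 0.05, 263 genes (1.7%) were higher and 330 (2.13%) lower, which together is 3.83% of genes. The libraries of the genotypes did not overlap for 1129 genes (7.3%) on the higher side and 701 (4.53%) on the lower side. Positive fold changes made up 50.7% of all genes, negative ones 49.3%, and the median over all genes was 0.0036. The single genes given below are therefore values whose direction did not pass edgeR's test over all genes. The 12 genes named per direction for their low p, Hddc3 among them, were taken only from genes whose groups were apart. Their separation was thus set by the naming rule. DESeq2 called 1 gene lower (0.00483%), Gm10800, and 0 higher, with 153 genes (0.739%) higher and 291 (1.41%) lower at an unadjusted p under 0.05. Limma-voom called 0 in either direction, with 398 (2.57%) higher and 545 (3.52%) lower at an unadjusted p under 0.05. In simulated counts for this comparison, edgeR recovered 84% of genes changed 2-fold and 18.67% of genes changed 1.5-fold. False calls averaged 15.33 per simulated draw. The counts were drawn gene by gene, with changed genes above 5 CPM and no effects shared across genes, such as the length trend below. Recovery in the real counts was therefore not measured.

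Single libraries weighed on these counts. Without knockout library 10, 420 genes were higher and 932 lower at an unadjusted p under 0.05. Without knockout library 12 the counts were 60 and 329, without knockout library 8 they were 97 and 451, and without heterozygous library 2 they were 173 and 390. Even so, the adjusted count by edgeR was 0 in each direction in every fit that left out 1 library, with a lowest adjusted p of 0.0797 without knockout library 8.

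Gm10800, a gene model annotated as protein coding on chromosome 2, had the largest fold change among the 24 genes named for their low p. It stood at 21.7, 25.7 and 31.7 CPM in heterozygous and 13.2, 4.88 and 4.28 CPM in knockout libraries. The groups were apart, and knockout library 8 lay between the other knockouts and the heterozygotes. The log2 fold change was -1.82 ± 0.40 by edgeR (adjusted p = 0.930) and -1.82 by DESeq2 (adjusted p = 0.0082). It was also the 1 gene passing all 3 thresholds in the authors' deposited table, with a log2 fold change of -1.82 and an adjusted p of 0.00795. What this model encodes is not stated in the files.

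Genes of the injury response of astrocytes had mostly negative fold changes. Of 13 genes induced in reactive astrocytes whatever the insult (pan-reactive genes), 11 were negative, 3 had an unadjusted p under 0.05 on the lower side and 0 on the higher side, and the median log2 fold change was -0.24. Of 12 genes described in ischemic reactive astrocytes (A2 genes), 11 were negative with a median of -0.34, 3 at an unadjusted p under 0.05. Of 11 genes described in astrocytes of endotoxin-treated mice (A1 genes), 10 were negative with a median of -0.15, and 0 had an unadjusted p under 0.05. For comparison, 2.13% of all genes were lower and 1.7% higher at an unadjusted p under 0.05 by edgeR. Relative to the heterozygous mean, the pan-reactive list lay at 0.24, -0.25 and 0.014 in heterozygous libraries 2, 4 and 6 and at -0.10, -0.27 and -0.31 in knockout libraries 8, 10 and 12. These ranges overlapped through heterozygous library 4, as did those of the A2 list. Without heterozygous library 2 the pan-reactive median was -0.13, and without knockout library 8 the A1 median was -0.24. With the level of Y-linked transcripts, which differed widely between libraries, as a covariate, the medians were -0.085 for pan-reactive and -0.14 for A2 genes.

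Cp, which encodes the copper-carrying ferroxidase ceruloplasmin, had the lowest p of the pan-reactive list. It stood at 237, 184 and 239 CPM in heterozygous and 167, 121 and 138 CPM in knockout libraries. All 3 knockout libraries lay below the lowest heterozygous one, and the log2 fold change was -0.63 ± 0.15. Aspg, an asparaginase gene, stood at 104, 95.9 and 89.5 CPM in heterozygous and 83.8, 84.3 and 73.2 CPM in knockout libraries. Its groups were apart as well, with a log2 fold change of -0.26 ± 0.10. Steap4, a metalloreductase gene, was at 135, 78.9 and 142 CPM in heterozygous and at 85.8, 82.1 and 83.0 CPM in knockout libraries. Here heterozygous library 4 lay below all knockout libraries, so the groups overlapped, and the log2 fold change was -0.51 ± 0.20.

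Gfap, the intermediate filament gene that marks astrocyte reactivity most widely, did not share this direction. It stood at 4025, 2520 and 2956 CPM in heterozygous and 3003, 2949 and 3635 CPM in knockout libraries. The groups overlapped fully, and the log2 fold change was 0.013 ± 0.19, with a sign that flips under upper-quartile scaling (-0.0021) and with the length trend described below removed (-0.0096).

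Among A2 genes, Tgm1, a transglutaminase gene, stood at 128, 110 and 123 CPM in heterozygous and 95.2, 98.3 and 90.6 CPM in knockout libraries. The groups were apart with a log2 fold change of -0.35 ± 0.10. Clcf1, which encodes a cytokine of the gp130 family, was at 8.45, 4.79 and 6.99 CPM in heterozygous and 4.82, 4.04 and 4.22 CPM in knockout libraries. Sphk1, the gene of a kinase that makes sphingosine 1-phosphate, was at 23, 20.6 and 14.2 CPM in heterozygous and 15.4, 12.8 and 13.2 CPM in knockout libraries. The groups of both genes overlapped by 1 library, heterozygous 4 for Clcf1 and heterozygous 6 for Sphk1, with log2 fold changes of -0.63 ± 0.24 and -0.48 ± 0.19. Serping1, a complement inhibitor gene of the A1 list, had overlapping groups and a log2 fold change of -0.37 ± 0.21.

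Signalling genes linked to these programs lay mostly on the same side. Their lists are not separate from those above, since Clcf1 is also an A2 gene and Osmr a pan-reactive gene. Of 19 genes of gp130 and STAT3 signalling, 16 were negative with a median log2 fold change of -0.14, and Clcf1 alone had an unadjusted p under 0.05 by edgeR. Stat3 itself, the transcription factor of the pathway, was at 422 to 493 CPM in heterozygous and 357 to 439 CPM in knockout libraries, a log2 fold change of -0.18 ± 0.12. The kinase gene Jak1 had a log2 fold change of -0.15 ± 0.10. Both had overlapping groups. The list's median was -0.27 without knockout library 8, -0.085 without knockout library 10 and -0.068 with the Y-linked level as a covariate.

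Of 18 genes of NF-kappaB subunits, feedback and targets, 14 were negative with a median of -0.18. By edgeR, 3 had an unadjusted p under 0.05 on the lower side, against 2.13% of all genes. The median was -0.31 without knockout library 8. Tnfaip3, which encodes the ubiquitin-editing brake A20, stood at 51.2, 42.0 and 46.0 CPM in heterozygous and 42.7, 27.9 and 33.7 CPM in knockout libraries. Knockout library 8 overlapped the heterozygous range, and the log2 fold change was -0.42 ± 0.16. The subunit genes Rel and Nfkb2 had log2 fold changes of -0.48 ± 0.19 and -0.40 ± 0.17. Of 22 cytokine and chemokine genes, 16 were negative with a median of -0.18 and 0 at an unadjusted p under 0.05. Tnf ranged from 16.8 to 49.5 CPM in heterozygous and from 8.47 to 23 CPM in knockout libraries, with overlapping groups and a log2 fold change of -0.83 ± 0.44. Without heterozygous library 2 the median of the cytokine list was 0.0060, without knockout libraries 8 and 10 in turn it was -0.30 and -0.11, and with the Y-linked and vessel marker levels as covariates it was -0.0032 and -0.074. The summed level of 15 neutrophil markers was 35.4 to 49.6 CPM in heterozygous and 24.8 to 40.4 CPM in knockout libraries. That of the 15 microglia markers was 1348 to 1927 and 1345 to 2119 CPM. The part of these cells in the cytokine values was not tested.

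**Figure D1:**
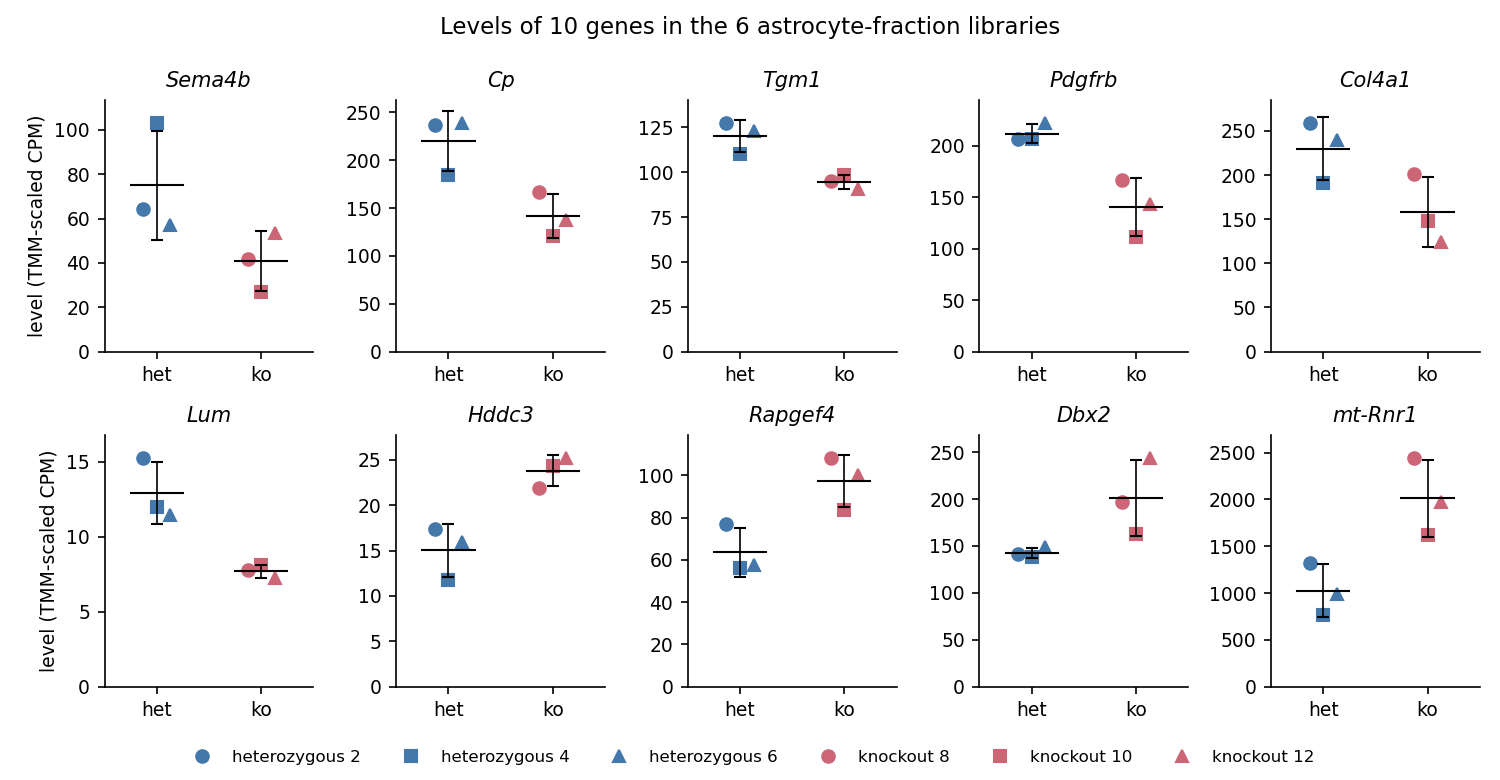
Levels of 10 genes in the astrocyte fraction, as TMM-scaled CPM on linear axes from 0, with 1 point per library (heterozygous het, knockout ko), a line at the mean and bars of 1 SD over 3 libraries. In all 10 panels the knockout points lie wholly below or wholly above the heterozygous points, except that for Col4a1 the ranges meet between 191 and 201 CPM. Cp, Pdgfrb, Lum, Hddc3, Rapgef4, Dbx2 and mt-Rnr1 met a naming rule that asks for groups apart, so their separation is not a result. Groups were apart for 11.8% of all genes.

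Matrix genes divided by kind. Of 20 genes of collagens, laminins and basement membrane, the sheet on which vessel cells and astrocyte endfeet rest, 19 were negative with a median log2 fold change of -0.37. Among them, 6 had an unadjusted p under 0.05 by edgeR on the lower side, against 2.13% of all genes. A further measure, groups wholly lower, held for 5 members, against 4.53% of all genes. The list's median exon length was 8122.5 bases. Among protein-coding genes of 6650 to 8138 bases and at least 5 CPM, 5.37% lay wholly lower. As a mean of log2(CPM + 0.5) over the list, relative to the heterozygous mean, knockout libraries lay at -0.33, -0.47 and -0.28 and heterozygous libraries at 0.090, -0.17 and 0.083. All knockout libraries were thus below all heterozygous ones. Of 23 other matrix and scar genes, such as tenascins and proteoglycan core proteins, 13 were negative with a median of -0.047 (0.027 without knockout library 10, -0.16 without knockout library 12, 0.0066 without heterozygous library 6) and 0 at an unadjusted p under 0.05. Tnc, the tenascin C gene, had a log2 fold change of -0.60 ± 0.27 with overlapping groups.

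Col4a1 and Col4a2 encode the chains of the main basement membrane collagen and are transcribed from neighbouring starts in opposite directions. Col4a1 stood at 259, 191 and 240 CPM in heterozygous and 201, 148 and 124 CPM in knockout libraries. Col4a2 stood at 143, 116 and 161 CPM in heterozygous and 117, 95.5 and 82.8 CPM in knockout libraries. For both genes heterozygous library 4 lay just under knockout library 8, so the groups overlapped there only. The log2 fold changes were -0.54 ± 0.19 and -0.51 ± 0.16. The RefSeq start windows of the pair (GRCm38.p6, chr8:11312777-11313076 on the minus strand and chr8:11312555-11312854 on the plus strand) share 78 bases, in capitals, and are shown because this short interval holds the starts of both genes.
Col4a1: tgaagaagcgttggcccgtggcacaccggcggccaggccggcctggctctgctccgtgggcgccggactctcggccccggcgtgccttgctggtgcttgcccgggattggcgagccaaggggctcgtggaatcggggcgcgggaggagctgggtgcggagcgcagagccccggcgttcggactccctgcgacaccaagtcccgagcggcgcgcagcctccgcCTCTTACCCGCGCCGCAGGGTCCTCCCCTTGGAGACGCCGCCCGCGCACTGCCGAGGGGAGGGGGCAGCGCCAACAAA
Col4a2: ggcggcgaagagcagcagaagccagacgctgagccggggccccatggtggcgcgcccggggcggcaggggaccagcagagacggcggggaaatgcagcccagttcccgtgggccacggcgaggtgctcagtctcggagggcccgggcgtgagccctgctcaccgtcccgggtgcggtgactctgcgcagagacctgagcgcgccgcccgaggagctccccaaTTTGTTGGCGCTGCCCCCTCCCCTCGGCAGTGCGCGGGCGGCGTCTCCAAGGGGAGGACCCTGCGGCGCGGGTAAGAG
Each window is 300 bases long with 74% and 73.7% G and C, against a median of 52.7% over 32851 start windows of the same table.

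Lamc1, the laminin gamma 1 chain gene of the same list, was at 110, 101 and 116 CPM in heterozygous and 101, 70.8 and 76.6 CPM in knockout libraries, a log2 fold change of -0.40 ± 0.14. Outside the list, Col16a1, a fibril-associated collagen gene named for its low p among all genes, was at 44.4, 41.6 and 38.5 CPM in heterozygous and 30.3, 32.5 and 29.8 CPM in knockout libraries. The groups were apart with a log2 fold change of -0.43 ± 0.11.

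Markers of the cells that wrap vessels lay on the lower side. All 15 mural (pericyte and smooth muscle) markers were negative with a median log2 fold change of -0.46. By edgeR, 4 had an unadjusted p under 0.05, against 2.13% of all genes on the lower side. The groups of 3 did not overlap, against 4.53% of all genes wholly lower. The median was -0.25 without heterozygous library 6 and -0.27 with the Y-linked level as a covariate. Pdgfrb, the receptor pericytes need for recruitment to vessels, stood at 206, 206 and 222 CPM in heterozygous and 167, 111 and 144 CPM in knockout libraries. All knockout libraries were below all heterozygous ones, with a log2 fold change of -0.59 ± 0.15. Abcc9, a potassium channel subunit gene of pericytes, was at 90.4, 59.2 and 91.7 CPM in heterozygous and 59.5, 42.7 and 48.3 CPM in knockout libraries. Notch3, a receptor gene of mural cells, was at 80.9, 60.1 and 80.2 CPM in heterozygous and 59.3, 43.0 and 55.8 CPM in knockout libraries. Heterozygous library 4 was the lowest heterozygous library for both, just under knockout library 8 for Abcc9 and just above it for Notch3, and the log2 fold changes were -0.68 ± 0.19 and -0.48 ± 0.16.

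Of 16 fibroblast markers, 13 were negative with a median of -0.29. By edgeR, 3 had an unadjusted p under 0.05 on the lower side, against 2.13% of all genes. The groups of 4 lay wholly lower, against 4.53% of all genes. With the Y-linked level as a covariate the median was -0.15. Lum, the gene of the collagen-binding proteoglycan lumican, stood at 15.3, 12.0 and 11.5 CPM in heterozygous and 7.79, 8.08 and 7.23 CPM in knockout libraries. The groups were well apart, with a log2 fold change of -0.74 ± 0.17. Dcn, the decorin gene, was at 84.0, 75.8 and 60.3 CPM in heterozygous and 52.3, 58.1 and 55.4 CPM in knockout libraries, also apart, with a log2 fold change of -0.41 ± 0.13. Col3a1, a fibrillar collagen gene, had a log2 fold change of -0.47 ± 0.20.

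Endothelial markers behaved otherwise from library to library. Of 18 markers 14 were negative with a median of -0.21, but relative to the heterozygous mean the list lay at 0.076, -1.03 and 0.96 in heterozygous libraries 2, 4 and 6 and at 0.14, 0.11 and -0.020 in knockout libraries. The knockout libraries thus fell inside a wide heterozygous range set by libraries 4 and 6. Without heterozygous library 6 the median turned to 0.61, without heterozygous library 4 it was -0.58, and with the Y-linked level as a covariate it was 0.019. Emcn and Esam, surface and junction genes of endothelium, had log2 fold changes of -0.49 ± 0.31 and -0.39 ± 0.30, while Sox7, a transcription factor gene of endothelium, was at 17.5, 13.5 and 18.2 CPM in heterozygous and 27.9, 21 and 30.9 CPM in knockout libraries. Sox7 had groups apart and a log2 fold change of 0.70 ± 0.18. With the joint level of endothelial and mural markers as a covariate, the medians were -0.20 for fibroblast and -0.32 for basement membrane genes. Those of the endothelial (0.40) and mural (-0.28) lists cannot be read, because the covariate was built from these same markers. The covariate mixes endothelial and mural markers, so it does not follow mural cells alone. The part of vessel cells in the basement membrane values was not tested.

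**Figure D2:**
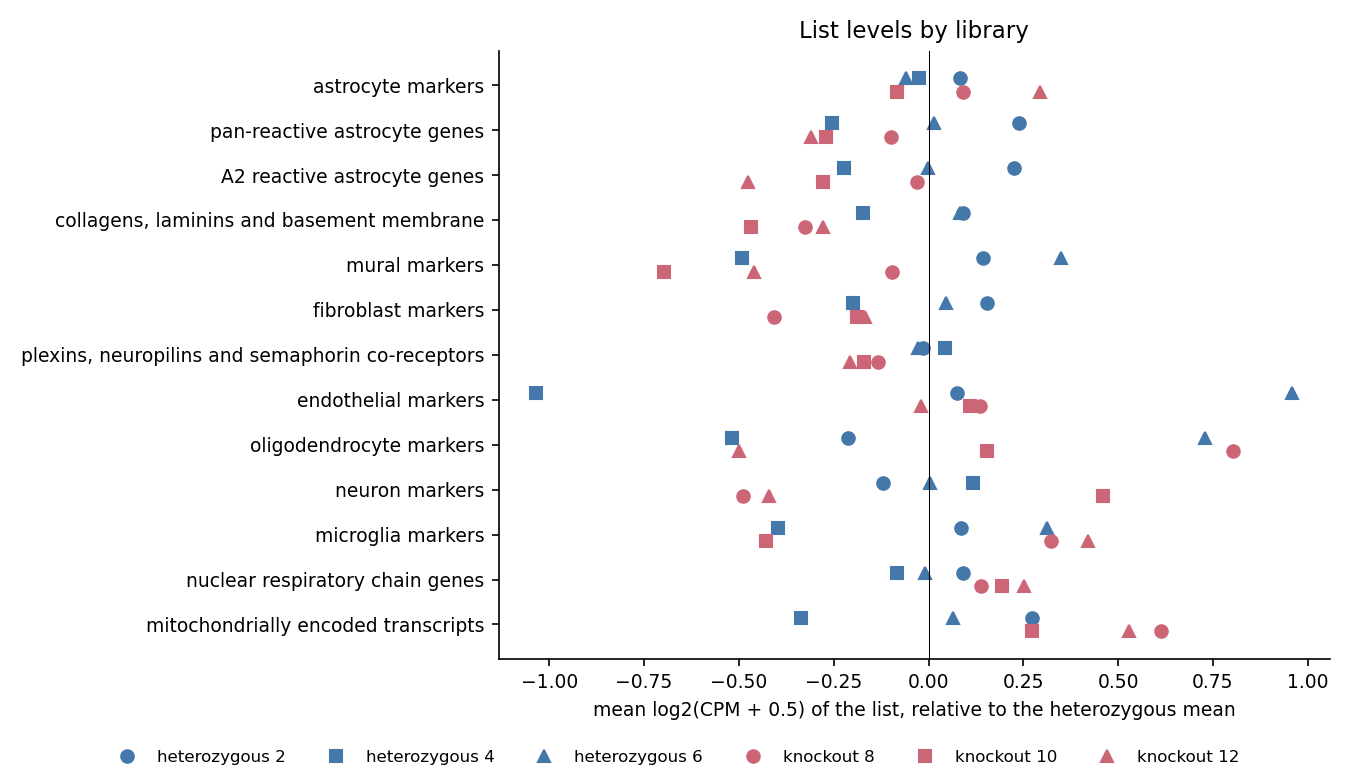
Mean log2(CPM + 0.5) of 13 gene lists in each library, relative to the mean of the 3 heterozygous libraries, with heterozygous libraries in blue and knockout libraries in red. Knockout points are separate from heterozygous points for basement membrane, plexin and nuclear respiratory chain genes, and endothelial markers span -1.03 to 0.96 among heterozygous libraries.

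Semaphorins and their receptors were examined as the family of the altered gene. Of 20 semaphorin genes 16 were negative with a median log2 fold change of -0.10, and Sema4b alone had an unadjusted p under 0.05 by edgeR. Leaving out 1 library in turn, the median was -0.34 without knockout library 10 and -0.17 without heterozygous library 2 or 4. Sema6c, a transmembrane class 6 gene, was at 6.36, 6.52 and 7.12 CPM in heterozygous and 5.61, 5.97 and 4.35 CPM in knockout libraries, which did not overlap, with a log2 fold change of -0.33 ± 0.19. Sema5a had overlapping groups and a log2 fold change of -0.59 ± 0.28.

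Of 14 plexins, neuropilins and co-receptors 13 were negative with a median of -0.18, 0 at an unadjusted p under 0.05. The list mean lay at -0.13, -0.17 and -0.21 in knockout libraries and at -0.015, 0.042 and -0.028 in heterozygous libraries. These means did not overlap, though the groups of each member did. Of 35 lists and 2 added ones, means also did not overlap for basement membrane, respiratory chain, glycolysis, mitochondrial genome expression and both ribosomal protein lists. Such a separation was thus not particular to the receptors. Plxna2, a receptor gene for class 6 and, with neuropilins, class 3 semaphorins, was at 57.3, 78.3 and 56.7 CPM in heterozygous and 49.7, 57.7 and 45.3 CPM in knockout libraries. Its log2 fold change was -0.33 ± 0.15, that of Plxna1 was -0.22 ± 0.11 and that of Plxna4 was -0.43 ± 0.22. The groups overlapped for these 3 genes. These are long transcripts, with a median exon length of 8114.5 bases over the list, and with the length trend described next removed the median was -0.12.

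Fold changes followed transcript length. Over 11346 protein-coding genes of at least 5 CPM, ordered by summed exon length and cut into 10 groups, the median log2 fold change was 0.16 in the shortest group (243 to 1997 bases) and -0.11 in the longest (10463 to 123179 bases), with each group below the one before. Positive fold changes made up 86.5% of the shortest group and 22.9% of the longest. In the shortest group 274 of 1137 genes (24.1%) lay wholly higher in knockouts and 9 wholly lower. In the longest, of 1135 genes, 21 lay higher and 113 (9.96%) lower. Across genes, Spearman's rho of fold change and exon length was -0.46, and genes are not independent replicates.

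Library by library, the median deviation of the shortest group minus that of the longest was 0.28, 0.29 and 0.26 in knockout libraries 8, 10 and 12 and 0.16, -0.21 and 0.058 in heterozygous libraries 2, 4 and 6. The knockout libraries were alike and the heterozygous libraries spread, with library 4 on the other side (two-sided exact permutation p = 0.1, the smallest 3 against 3 libraries allow, for a measure chosen after the values were seen). Among protein-coding genes at an unadjusted p under 0.05 by edgeR, the median exon length was 2099.5 bases for the 238 higher and 7480 bases for the 274 lower. In the immune fraction the same genes gave a rho of 0.059, with medians of -0.068 in the shortest and -0.013 in the longest group. Once the trend was removed per library, rho was 0.015, and 121 genes (0.782%) were higher and 338 (2.19%) lower at an unadjusted p under 0.05 by edgeR, again with 0 past the adjusted threshold.

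**Figure D3:**
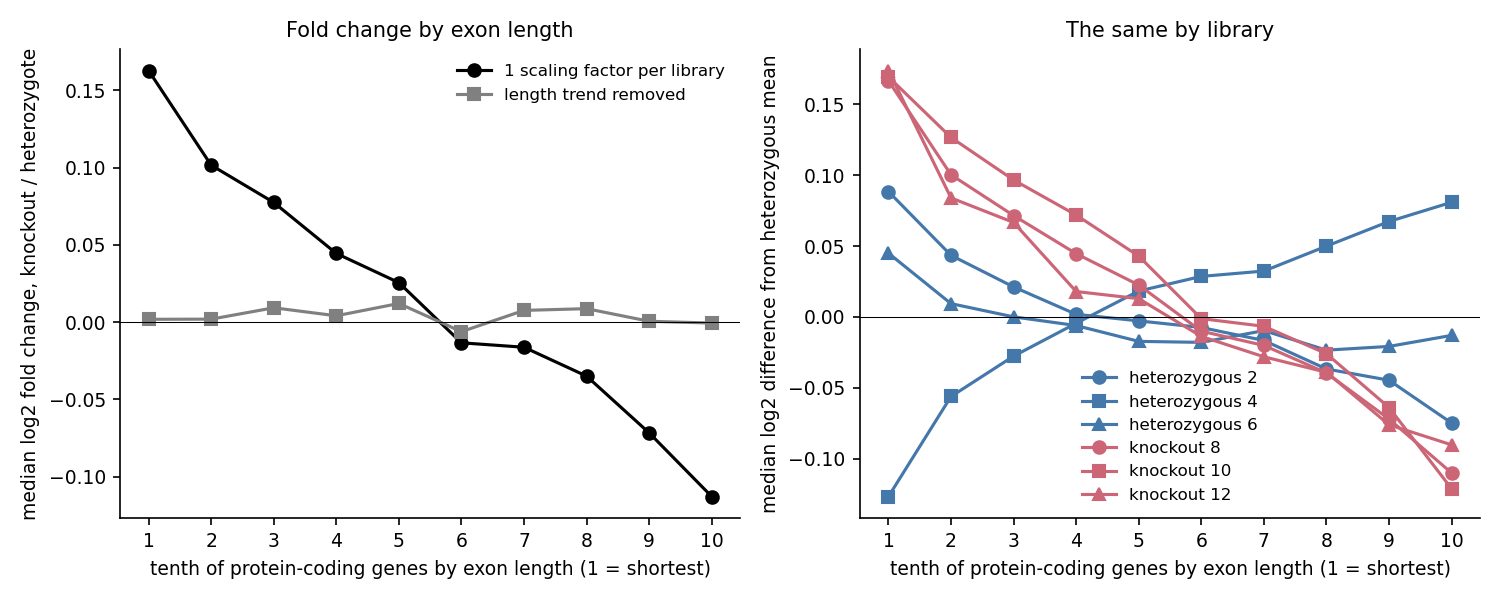
Left, median log2 fold change of knockout over heterozygote in 10 groups of protein-coding genes from shortest to longest summed exon length, with 1 scaling factor per library (black) and with the length trend removed (grey). Right, median log2 difference of each library from the heterozygous mean in the same groups, where the 3 knockout lines start near 0.17 and end near -0.11 while heterozygous library 4 runs the other way.

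The groups on the lower side kept negative medians with the trend removed. The median log2 fold change was then -0.35 for pan-reactive genes, -0.37 for A2 genes, -0.31 for basement membrane genes, -0.53 for mural markers and -0.31 for fibroblast markers. For the groups on the higher side, which follow, the median without the trend is given beside each.

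Genes of the respiratory chain had positive fold changes throughout. All 27 nuclear genes of the chain were positive with a median of 0.19. Among them, 6 had an unadjusted p under 0.05 by edgeR on the higher side and 16 had groups that did not overlap. Wholly higher genes made up 7.3% of all genes and 17.4% of the length group of 1999 to 2756 bases. Ndufb9, a complex I subunit gene, stood at 108, 91.2 and 101 CPM in heterozygous and 129, 118 and 136 CPM in knockout libraries. The groups were apart with a log2 fold change of 0.35 ± 0.11. Ndufa4, a gene of complex IV, and Cox4i1, another, had log2 fold changes of 0.30 ± 0.10 and 0.29 ± 0.11. These are short transcripts, with a median exon length of 2178 bases. With the length trend removed the list's median was 0.081, 24 of 27 were positive and 0 had an unadjusted p under 0.05.

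Ribosomal protein genes, a list added after values were seen, also lay on the higher side. Of 79 cytosolic ribosomal protein genes 68 were positive with a median of 0.23 and 30 wholly higher, and with the trend removed the median was 0.10. Of 77 mitochondrial ribosomal protein genes 73 were positive with a median of 0.17 and 34 wholly higher, and with the trend removed 0.099. The lists had median exon lengths of 1770 and 2533 bases. Wholly higher genes made up 7.3% of all genes, 24.1% of the shortest length group and 17.4% of that of 1999 to 2756 bases. With the trend removed, 0 cytosolic members were higher and 1 lower at an unadjusted p under 0.05 by edgeR, against 1 and 0 mitochondrial members. Many cytosolic ribosomal protein genes have near-identical processed copies, so their counts are uncertain.

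Transcripts of the mitochondrial genome kept a larger difference. All 9 tested were positive with a median of 0.41. By edgeR, 3 had an unadjusted p under 0.05, against 1.7% of all genes on the higher side, and 2 with the length trend removed. The groups of 5 did not overlap, against 7.3% of all genes and 24.1% of the shortest length group wholly higher. The list's median was 0.23 with the length trend removed and also 0.23 without heterozygous library 4. They took 4.56 to 6.55% of reads in heterozygous and 6.66 to 7.67% in knockout libraries. The 12S ribosomal RNA gene mt-Rnr1 stood at 1326, 763 and 987 CPM in heterozygous and 2445, 1619 and 1969 CPM in knockout libraries. Every knockout library was above every heterozygous one, with a log2 fold change of 0.97 ± 0.23, and of 0.78 with the trend removed. The 16S gene mt-Rnr2 was at 1731, 1056 and 1379 CPM in heterozygous and 2990, 1652 and 2529 CPM in knockout libraries, a log2 fold change of 0.78 ± 0.25 with knockout library 10 inside the heterozygous range. Of 17 nuclear genes that copy, process and translate the mitochondrial genome, 10 were positive with a median of 0.030 (-0.021 without knockout library 12, -0.0062 without heterozygous library 2) and 0 at an unadjusted p under 0.05. Total reads per library and the mitochondrial share separated the genotypes together, and the part of depth or RNA quality was not tested.

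Chaperone genes lay on the higher side with and without the trend. Of 19 heat shock proteins and cochaperones 16 were positive with a median of 0.20. By edgeR, 4 were higher at an unadjusted p under 0.05, against 1.7% of all genes. With the trend removed the median was 0.17, with 3 members higher and 1 lower at that p. The median was 0.11 without knockout library 12. Dnaja1, a cochaperone gene of the DnaJ family, was at 94.2, 86.3 and 95.4 CPM in heterozygous and 103, 115 and 118 CPM in knockout libraries. Its log2 fold change was 0.29 ± 0.10, with groups apart. Its relative Dnajb1 was at 50.4, 52.1 and 45.0 CPM in heterozygous and 52.7, 67.7 and 69.4 CPM in knockout libraries, also apart but narrowly for knockout library 8. Chordc1, a cochaperone gene of Hsp90, had a log2 fold change of 0.25 ± 0.10. Of 22 immediate early genes 15 were positive with a median of 0.082, which was -0.027 without heterozygous library 6 and -0.015 without knockout library 8. Dusp1, a phosphatase gene induced by stress, had overlapping groups and a log2 fold change of 0.35 ± 0.14.

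Genes of astrocyte identity were on the higher side with small differences. Of 18 astrocyte transcription factor genes 16 were positive with a median log2 fold change of 0.20, and of 0.21 with the trend removed. By edgeR, 3 were higher at an unadjusted p under 0.05, against 1.7% of all genes. With the trend removed 1 was, Dbx2, while Hes1 and Sox2 were at 0.37 and 0.38. Dbx2, a homeobox gene, stood at 141, 138 and 149 CPM in heterozygous and 196, 163 and 244 CPM in knockout libraries. Hes1, a target of Notch signalling, stood at 33.3, 38.6 and 39.4 CPM in heterozygous and 48.7, 43.4 and 64.5 CPM in knockout libraries. The groups of both were apart, knockout library 12 was the highest for both, and the log2 fold changes were 0.49 ± 0.15 and 0.49 ± 0.16. Sox2, a factor of neural precursors and astrocytes, was at 202, 167 and 187 CPM in heterozygous and 235, 196 and 350 CPM in knockout libraries, overlapping through knockout library 10, with a log2 fold change of 0.49 ± 0.20.

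Of the 18 astrocyte markers 16 were positive with a median of 0.11, and of 16 genes of transmitter uptake, coupling and water transport 10 were positive with a median of 0.074. Neither list had a member at an unadjusted p under 0.05 by edgeR. Gja1, the connexin 43 gene, was at 1243 to 1539 CPM in heterozygous and 1398 to 1678 CPM in knockout libraries, and Aqp4, the water channel gene of endfeet, at 754 to 864 and 805 to 964 CPM. The astrocyte list lay at 0.084, -0.024 and -0.059 in heterozygous libraries and at 0.091, -0.083 and 0.30 in knockout libraries, so the groups overlapped and library 12 was the highest. Without knockout library 12 the median was 0.046 for the transcription factor list, -0.0097 for the astrocyte markers and -0.079 for the uptake list, and without knockout library 10 it was 0.35, 0.19 and 0.17.

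**Figure D4:**
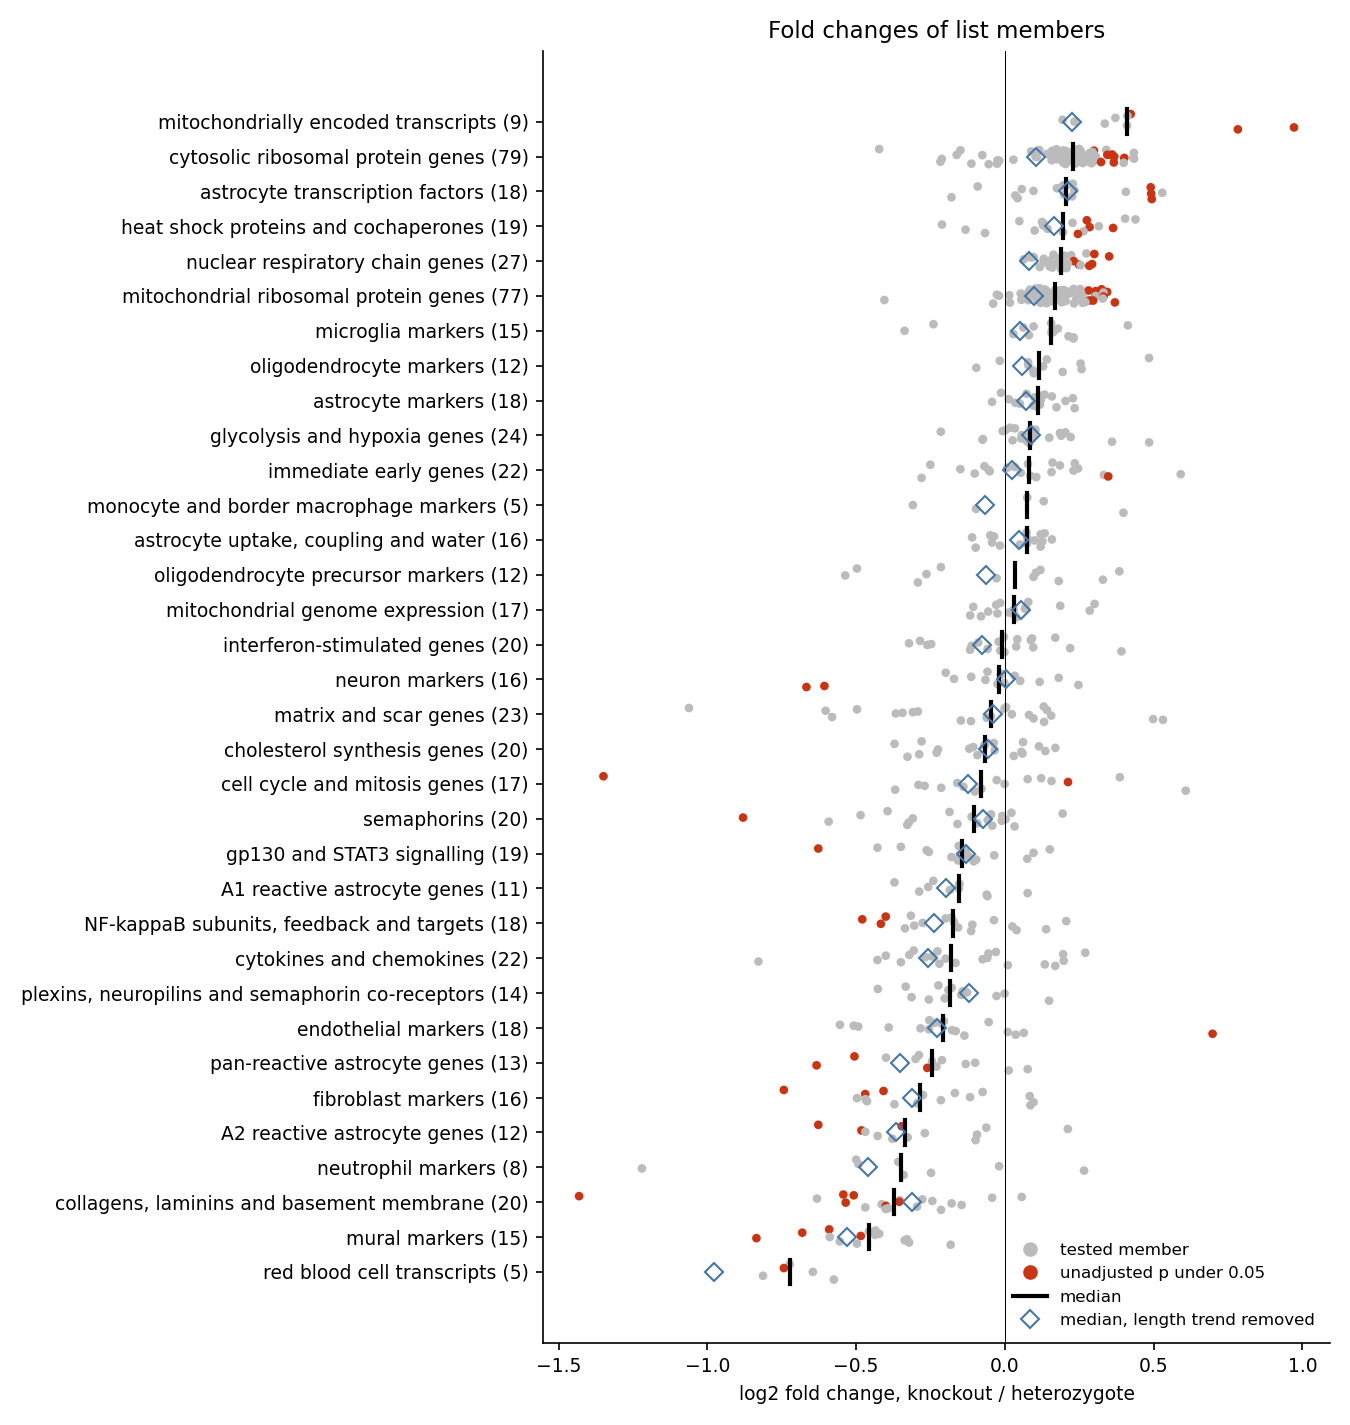
Log2 fold changes of the tested members of the gene lists with at least 5 tested members, with the number tested in parentheses. Red points have an unadjusted p under 0.05, black bars are list medians and blue diamonds are medians with the exon length trend removed; medians run from 0.41 for mitochondrially encoded to -0.72 for red blood cell transcripts.

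Among single genes with the lowest p on the higher side, several have known roles in signalling and metabolism. Rapgef4, which encodes the cyclic AMP sensor EPAC2, stood at 77.1, 56.3 and 57.8 CPM in heterozygous and 108, 83.8 and 100.01 CPM in knockout libraries. The groups were apart with a log2 fold change of 0.61 ± 0.15, and of 0.64 with the length trend removed. Gsto1, a glutathione transferase gene, had a log2 fold change of 0.38 ± 0.11, Eif1b, a translation initiation factor gene, of 0.37 ± 0.10, and Fmc1, an ATP synthase assembly factor gene, of 0.37 ± 0.11. With the trend removed these 3 were at 0.25, 0.18 and 0.13. Phospho2, a phosphatase gene, kept 0.35 of 0.36. The pseudogenes Gm14121 and Gm13341, whose reads may belong to related genes, were at 0.88 ± 0.19 and 0.69 ± 0.18, and the uncharacterised gene 1110065P20Rik at 0.39 ± 0.11.

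On the lower side, Rreb1, a zinc finger transcription factor gene downstream of RAS, stood at 29.8, 30.2 and 26.1 CPM in heterozygous and 20.01, 19.4 and 22 CPM in knockout libraries, apart, with a log2 fold change of -0.49 ± 0.12. Pear1, a receptor gene of platelets and endothelium, was at 16.5, 12.8 and 20.4 CPM in heterozygous and 10.0, 9.30 and 10.0 CPM in knockout libraries, a log2 fold change of -0.76 ± 0.19. The knockout libraries were nearly equal to one another for both genes. Slc16a12, a monocarboxylate transporter family gene, had a log2 fold change of -0.79 ± 0.20, Tns2, a focal adhesion gene, of -0.48 ± 0.12, and the zinc finger genes Hivep1 and Zbtb37 of -0.45 ± 0.12 and -0.60 ± 0.16. The gene model AC149090.1, which the annotation places on an unplaced scaffold, had -0.41 ± 0.10.

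The immune fraction of the same genotypes, in a fit of all 12 libraries, was set beside these values to see where the astrocyte fraction differed. In the test of the difference, 0 genes of 16880 passed at an adjusted p of 0.05 by edgeR in either direction, and 686 (4.06%) and 1067 (6.32%) had an unadjusted p under 0.05 with the astrocyte fold change higher and lower, respectively. DESeq2 called 3 genes (0.0316%) with a lower fold change in the astrocyte fraction, Il34, Cacna1c and Fry. Il34, which encodes a ligand of the microglial receptor CSF1R, was at 29.2, 31.6 and 33.0 CPM in heterozygous and 27.1, 28.7 and 24.7 CPM in knockout libraries of the astrocyte fraction. The log2 fold change there was -0.22 ± 0.11 against 0.87 ± 0.15 in the immune fraction, a difference of -1.1 ± 0.20 (edgeR adjusted p = 0.475, DESeq2 adjusted p = 0.0024).

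Of the 15 mural markers 14 were negative in the astrocyte and positive in the immune fraction, as were 15 of 20 basement membrane genes and 12 of 18 endothelial markers, against 23.6% of all 15431 genes in both fits. The difference had an unadjusted p under 0.05 by edgeR for 8, 8 and 1 members of these lists, against 10.8% of all genes. The lists were taken up after 15, 19 and 14 of their members had been negative in the astrocyte fraction, against 49.3% of all genes. The shares over all genes are therefore not matched to these lists, and the counts are description only. Sox7 was positive in both fractions. Abcc9 had a log2 fold change of 2.79 ± 0.74 in the immune fraction against -0.68 in the astrocyte fraction, Pdgfrb 1.45 ± 0.66 against -0.59, and Col4a1 1.1 ± 0.39 against -0.54. The differences had unadjusted p of 0.0019, 0.038 and 0.0095 and an adjusted p of 0.475 each by edgeR. For Plxna2, at 0.98 ± 0.25 in the immune fraction, the difference had an unadjusted p of 0.0021 by edgeR. Sema4b, at -1.38 ± 0.45, had the same sign in both fractions, and the difference had an unadjusted p of 0.41 by edgeR. So did Gm10800, at -2.27 ± 0.48 in the immune fraction, and Hddc3, at 0.81 ± 0.28. Their differences had unadjusted p of 0.50 and 0.71 by edgeR. The 12S gene mt-Rnr1 stood at -0.065 ± 0.27 in the immune fraction, and its difference of 1.03 ± 0.38 had an unadjusted p of 0.017 by edgeR. The labels tie no astrocyte library to an immune library, so the test treats all 12 as independent. A pairing by neighbouring column numbers was not tested.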

How the data were processed

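RNA was measured in 12 libraries, of which the 6 of the astrocyte fraction are the subject. Per the submitters' processing notes, reads were handled with cutadapt, STAR, HTSeq and DESeq2 on GRCm38, with versions and annotation not given in the sources used here. Per the file headers, the columns used were raw counts of reads per gene, 20776 genes per table. The same deposited table held the authors' log2 fold change, their p-values with adjusted p-values, and a score per gene, the highest count in any library. The authors' limits were 0.05 for the adjusted p, 1 for the size of the log2 fold change and 30 for the highest count. 12 columns of per-sample values were not used. Column heads and sample titles are numbered differently, so a column was matched to its group only.

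Knockout was compared with heterozygote by the two-sided edgeR 4.0.16 quasi-likelihood F test (R 4.3.3, limma 3.58.1) with a robust fit, TMM scaling, a filter on low counts (filterByExpr, at least 10 per library and 15 in total) and Benjamini-Hochberg adjustment over 15468 genes. Standard errors were derived from the F statistic, and the common biological coefficient of variation was 17.1%. Values after ± are standard errors. List levels are means of log2(CPM + 0.5). Single values per library were compared by exact permutation. Within groups, library pairs differed by a mean chi-square per gene of 10.9 to 33.0, so none was a copy of another. The fit was checked on simulated counts in which 200 genes were changed. Exon lengths and coordinates came from GENCODE M21, which held 20747 of the identifiers, and start windows from RefSeq (250 bases before and 50 after the start). The length trend was removed as an offset per library (lowess, span 0.4), chosen after the values were seen. DESeq2 1.42.0, limma-voom, other scalings and filters, covariates and leaving out libraries were alternatives.

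The members and gene lists were chosen with earlier results of these data known. The text gives examples from the genes named by rule, which are Sema4b, the 12 genes per direction with the lowest p among those whose groups were apart and whose mean was 5 CPM or more, the 3 members of each list with the lowest p, genes within 500000 bases of Sema4b, and markers named for their level. Cacna1c, Fry and Prc1 were named after their values were seen.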

Additional observations from a re-analysis of the deposited data

How the results depend on the processing

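By edgeR, 0 genes passed in either direction under each alternative scaling, filter, covariate, threshold and left-out library, while DESeq2 called 1 gene lower (Gm10800) and 3 genes with a lower fold change in the astrocyte than in the immune fraction. Genes higher at an unadjusted p under 0.05 numbered 153 by DESeq2, 398 by limma-voom, 171 with upper-quartile scaling, 68 in the fit of all 12 libraries, 121 with the length trend removed, 500 with the Y-linked and 511 with the vessel marker level as a covariate, and 60 to 420 with 1 library left out. Genes lower numbered 216 in the fit of all 12 libraries, 545 by limma-voom, 561 without a count filter and 329 to 932 with 1 library left out. The median of nuclear respiratory chain genes was 0.081 with the length trend removed. The log2 fold change of Gfap turned to -0.0096 with the length trend removed, -0.099 by limma-voom and -0.0021 with upper-quartile scaling, and ranged from -0.13 to 0.19 with 1 library left out. The cause of these differences was not tested. Sema4b stayed negative throughout, at -1.17 to -0.58 with 1 library left out. With heterozygous library 4 left out, the medians were -0.25 for pan-reactive, -0.40 for A2, -0.47 for basement membrane and -0.66 for mural genes, and 0.23 for mitochondrially encoded transcripts.

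No paired analysis was run. The titles of the groups share no replicate numbers, and the columns were matched to groups only. Column numbers alternate between the fractions, odd in immune and even in astrocyte, and a pairing of neighbouring numbers was not tested. With 3 libraries per group, changes of 1.5-fold were mostly below what the test recovers in simulated counts.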

Other observations

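Markers of several other cells varied between libraries more than between genotypes. Of 12 oligodendrocyte markers 10 had positive fold changes with a median of 0.11 (-0.33 without knockout library 8 and 0.63 without heterozygous library 6), and Mbp, the myelin basic protein gene, ranged from 653 to 1207 CPM in heterozygous and from 934 to 1656 CPM in knockout libraries. Of 15 microglia markers 13 were positive with a median of 0.16 (-0.079 without heterozygous library 4 and -0.054 without knockout library 12), and C1qb, a complement gene, had a log2 fold change of 0.23 ± 0.21. Neuron markers were divided, 5 positive and 11 negative, and the list lay at -0.49, 0.46 and -0.42 in knockout libraries 8, 10 and 12. The long noncoding RNA genes Meg3 and Snhg11, both abundant in neurons, were also highest in library 10 among knockouts, with Meg3 at 143, 198 and 136 CPM in knockout and 224, 199 and 333 CPM in heterozygous libraries. Without knockout library 10 the median of neuron markers was -0.46.

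All 5 red blood cell transcripts were negative with a median of -0.72 (-1.12 without knockout library 8), and Hba-a2, an alpha globin gene with a near-identical copy, ranged from 32.7 to 60.9 CPM in heterozygous and from 22.8 to 40.4 CPM in knockout libraries. Of 24 glycolysis and hypoxia genes 20 were positive with a median of 0.083 (0.025 without heterozygous library 6 and 0.042 without knockout library 12), and Ldha, the lactate dehydrogenase A gene, was at 340 to 383 CPM in heterozygous and 408 to 431 CPM in knockout libraries, without overlap. Of 17 cell cycle genes 11 were negative with a median of -0.079 (0.0501 without heterozygous library 4 and 0.037 without knockout library 10), and Pcna, the DNA clamp gene, stood at 40.0 to 40.8 and 46.5 to 46.9 CPM, also without overlap (log2 fold change 0.21 ± 0.09). Interferon-stimulated genes had a median of -0.0091 over 20 members (-0.098 to 0.058 with 1 library left out), and cholesterol synthesis genes of -0.068 over 20, the latter at 0.104 without heterozygous library 4. None of these genes passed the adjusted threshold by edgeR.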
